A study of Mus musculus with 4 samples.

Results

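The TRIM genes encode proteins with a tripartite motif, in which a RING finger, 1 or more B-box zinc fingers and a coiled coil follow each other. They were taken from a table of read counts by name: every row whose symbol is Trim followed by a number and, where present, a letter from a to d. This gave 61 of the 16846 genes listed. The family was divided into 12 genes known from other work to be induced by interferon (Trim5, Trim12c, Trim14, Trim21, Trim25, Trim26, Trim30a, Trim30c, Trim30d, Trim34a, Trim34b and Trim56) and the other 49. The division was made from general knowledge, but it was chosen by people who knew that interferon-induced genes were higher in the vector libraries than in the control hairpin libraries. The values of that comparison are therefore given as a description of the chosen genes, and nothing is supported with them. Trim12a and Trim30b, which belong to the same gene cluster, were not analysed here.

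The RNA came from HT22 cells, an immortalised mouse line of hippocampal neuron origin, in a study of Ntoco, a long noncoding RNA named in its title as raised by hypoxia-ischemia after brain injury. The series lists 1 sample for each of 4 groups, while the tables hold 2 numbered columns a group, taken here as 2 libraries: cells with a control short hairpin RNA (sh-Ctrl), cells with a hairpin against Ntoco (sh-Ntoco, the knockdown), cells with an empty vector (Vector) and cells with Ntoco supplied (Lv-Ntoco, the overexpression). The cell line field reads HT22 for all 4 groups, but the sample titles write HT22, HT23, HT24 and HT25 in turn, and all were taken as HT22. The columns of the knockdown and overexpression write the target as AK, not Ntoco, so which group they belong to was read from their role, and every value of these groups rests on that reading. No time point or other agent is given, and the labels do not say whether the 2 libraries of a group came from separate cultures, so p-values measure the spread between these libraries. The column of the vector group carries the name of a plasmid while the label of its partner reads Lv, and hairpin control and vector control may also differ in how they were delivered. A difference between these controls cannot be told apart from a difference in delivery, handling or time.

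TRIM proteins are mostly ubiquitin ligases: the RING finger brings in a ubiquitin-conjugating enzyme, and the carboxy-terminal domain chooses the target. Many members act in innate immunity. Type I interferon binds its receptor, the receptor-bound kinases Jak1 and Tyk2 are switched on, and a complex that contains Irf9 binds interferon-stimulated response elements in the promoters of antiviral genes, several TRIM genes among them. Other members work far from immunity, as transcriptional corepressors, organisers of microtubules, or regulators of protein turnover in neurons and muscle.

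All 61 genes matched a protein-coding RefSeq gene of the GRCm38.p6 annotation by Entrez identifier and symbol, and they lay on 15 chromosomes. Of these, 10 lay on chromosome 7 between 102557920 and 104507853: Trim21, Trim68, Trim6, Trim34a, Trim5, Trim34b, Trim12c, Trim30c, Trim30a and Trim30d. The interferon list held 8 of the 10, and its remaining genes lay elsewhere, with Trim25 on chromosome 11 (88999403 to 89020294), Trim26 on chromosome 17 (36837123 to 36859398), Trim56 on chromosome 5 (137111286 to 137116462) and Trim14 on chromosome 4 (46505072 to 46536150). Genes of the cluster resemble each other. The longest transcripts of Trim34a and Trim34b were 98.7% identical over 1827 aligned bases, those of Trim12c and Trim5 were 94.6% identical over 3710 bases, and those of Trim30a and Trim30d were 83.4% identical over 2002 bases. Reads of such neighbours may have been split or dropped in counting, so the values of single genes within a pair are uncertain.

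The promoters of the family are described by their letters, without using expression. The interferon list was chosen for known induction by interferon, so matches in it are not separate support for the division. Matches in near-copies of the cluster are not separate observations either. RefSeq promoter windows of 300 bases, 250 before and 50 after a start site, were present for 46 of the 61 genes. The core of an interferon-stimulated response element, GAAANNGAAA or TTTCNNTTTC on the other strand, stood in 7 of the 11 windowed genes of the interferon list and in 1 of the 35 other windowed genes, against 3.99% of 27025 genes with a window. The 7 were Trim5, Trim12c, Trim21, Trim26, Trim30a, Trim30d and Trim34a, and the other gene was Trim2. The stretches of 30 bases around the matches follow, written 5′ to 3′ on the strand of the gene with the matched letters in capitals, from GRCm38.p6.
Trim12c, chr7:104353359-104353388, minus strand: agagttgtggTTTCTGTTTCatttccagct
Trim5, chr7:104288136-104288165, minus strand: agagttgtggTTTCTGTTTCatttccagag
Trim30a, chr7:104465210-104465239, minus strand: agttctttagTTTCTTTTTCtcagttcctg
Trim30a at a second start site, chr7:104446104-104446133, minus strand: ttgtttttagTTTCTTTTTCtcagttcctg
Trim30d, chr7:104507871-104507900, minus strand: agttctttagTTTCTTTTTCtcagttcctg
Trim34a, chr7:104244457-104244486, plus strand: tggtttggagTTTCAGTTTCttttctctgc
Trim21, chr7:102565447-102565476, minus strand: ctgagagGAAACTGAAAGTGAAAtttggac
Trim26, chr17:36836979-36837008, plus strand: cttccgaTTTCACTTTCCTTTTCtcgggcc
Trim2, chr3:84212791-84212820, minus strand: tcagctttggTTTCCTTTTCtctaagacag

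The first stretch of Trim30a and that of Trim30d were the same in all 30 bases, while the stretch at the second start site of Trim30a differed from both in its first bases, and those of Trim5 and Trim12c carried the same matched letters. Trim21 and Trim26 each held 2 overlapping matches. Before the start site, the matches ended 20 bases away in Trim12c, 40 in Trim5, 27 in Trim30a at its first start site and 32 in Trim30d, and those of Trim26 began 160 bases away. After the start site, they began 3 bases away at the second start of Trim30a, 11 in Trim34a, 14 in Trim21 and 29 in Trim2. Windows of Trim25, Trim30c, Trim34b and Trim56 held none, which says only that these letters are not in these windows. A second motif, the gamma-activated site TTCNNNGAA, was in 1 of the 11 windowed genes of the interferon list (Trim30c), in 5 of the 35 others and in 9.55% of genes. A match is a description of letters and not a bound site.

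The libraries held between 18452588 and 19859041 counted reads. No row was named Ntoco (0 rows), so the targeted RNA could not be checked in any library. In all that follows, CPM are reads scaled to a common library total, with the TMM factors of edgeR. Of the neuronal markers, Map2, Tubb3 and Syt1 had a highest value of 0.110 CPM over all libraries, in Tubb3. Camk2a made up most of the summed level of 20.5 to 44.7 CPM. Map2, Tubb3 and Syt1, defining markers of neurons, were thus near absent from a line of neuronal origin. Fibroblast markers summed to 3244 to 10174 CPM and astrocyte markers to 73.7 to 188 CPM. The fibroblast markers were uneven: Col1a2 was at 1044 to 3630 CPM, while the highest value of Col3a1 was 3.14 and that of Dcn 0.0493. Lum was at 0 in every library. The markers of microglia and macrophages, cells that respond strongly to interferon, summed to 28.3 to 40.5 CPM over all libraries and to 31.7 and 31.3 CPM in the vector libraries. Ptprc (CD45) was at 0 in every library, but other markers of this list were not. In the vector libraries Cd68 was at 11.6 and 10.6 CPM, Lyz2 at 11.8 and 10.6, and Cd14 at 4.97 and 3.86. Of the 14 markers, 2 were at 0 in the first vector library and 4 in the second. Whether such cells were present was not tested.

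Reads were found for 59 of the 61 genes, and 41 had a read in every library. Trim43b and Trim63 were at 0 throughout. The filter on low counts kept 42 genes for testing, 10 of the interferon list and 32 others, and left out 19 (Trim5, Trim14 and 17 others). None of those left out exceeded 8 reads in any library. Just outside stood Trim69, with 0 and 4 reads in the sh-Ctrl libraries, 2 and 3 in sh-Ntoco, 4 and 8 in Vector, and 3 and 1 in Lv-Ntoco. Just inside stood Trim40, with 6 and 17, 4 and 8, 2 and 14, and 6 and 8 reads in the same order, and Trim9, a microtubule-associated ligase of neurons, with 4 and 27, 14 and 9, 10 and 7, and 7 and 7 reads.

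Levels of different genes were compared as FPKM, fragments scaled by gene length and library total, which the authors deposited. In the sh-Ctrl libraries Trim28, the corepressor of KRAB zinc-finger proteins, stood first with 100.2 FPKM ± 9.23 (SD, n = 2). Trim35 followed with 57.7 ± 0.738 FPKM (SD, n = 2) and Trim47 with 32.1 ± 14.3. The interferon list was spread through the order there: Trim26 was 4th with 27.4 FPKM, Trim25 was 14th with 11.6, Trim30a was 16th with 9.004, Trim12c was 23rd with 4.35 and Trim21 was 26th with 2.50. Trim26 at 27.4 ± 3.77 and Trim37 at 24.5 ± 0.129 FPKM (SD, n = 2) were neighbours that did not differ by more than their spread, nor did Trim3 at 20.4 ± 0.341 and Trim33 at 20.2 ± 5.54.

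The order was different in the vector libraries. Trim30a stood first with 104 ± 29.1 FPKM (SD, n = 2), level within its spread with Trim28 at 96.9 ± 14.8. Next came Trim25 with 59.6 ± 14.2 FPKM, Trim35 with 50.6 ± 5.55, Trim26 with 40.7 ± 11.8, Trim21 with 37.4 ± 23.4 and Trim12c with 30.1 ± 0.263 (SD, n = 2). Neighbours among these 5 overlapped in their spread. Across all 8 libraries 35 of the 61 genes had a mean of at least 1 FPKM and 26 were below it.

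The first comparison sets the empty vector against the control hairpin. It is a comparison of the controls and shows the background on which the effect of Ntoco was measured. All 10 tested genes of the interferon list were higher in both vector libraries than in both sh-Ctrl libraries, with a median log2 ratio of 3.66, beside -0.00 over the 12115 genes tested. Trim30c, among them, passed the filter on low counts only through the vector libraries and the second Lv-Ntoco library, where it was high. Among the 32 other tested genes 7 were higher in both libraries and 6 lower, with a median of 0.03. Of all genes tested, 24.6% were higher in both libraries and 26.5% lower. Because the genes are read from bulk RNA, more cells with a transcript and more transcript per cell cannot be told apart. Markers of other cell types also differed between these controls: of 7 tested fibroblast markers 4 were lower in both vector libraries and 0 higher (median log2 ratio -0.87, summed level 8653 and 6926 CPM in sh-Ctrl against 3536 and 6070 in Vector), and of 7 tested astrocyte markers 4 were lower and 0 higher (median -0.67, summed level 166 and 188 against 73.7 and 148 CPM). Their part in the values of the TRIM genes was not tested.

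**Figure D1:**
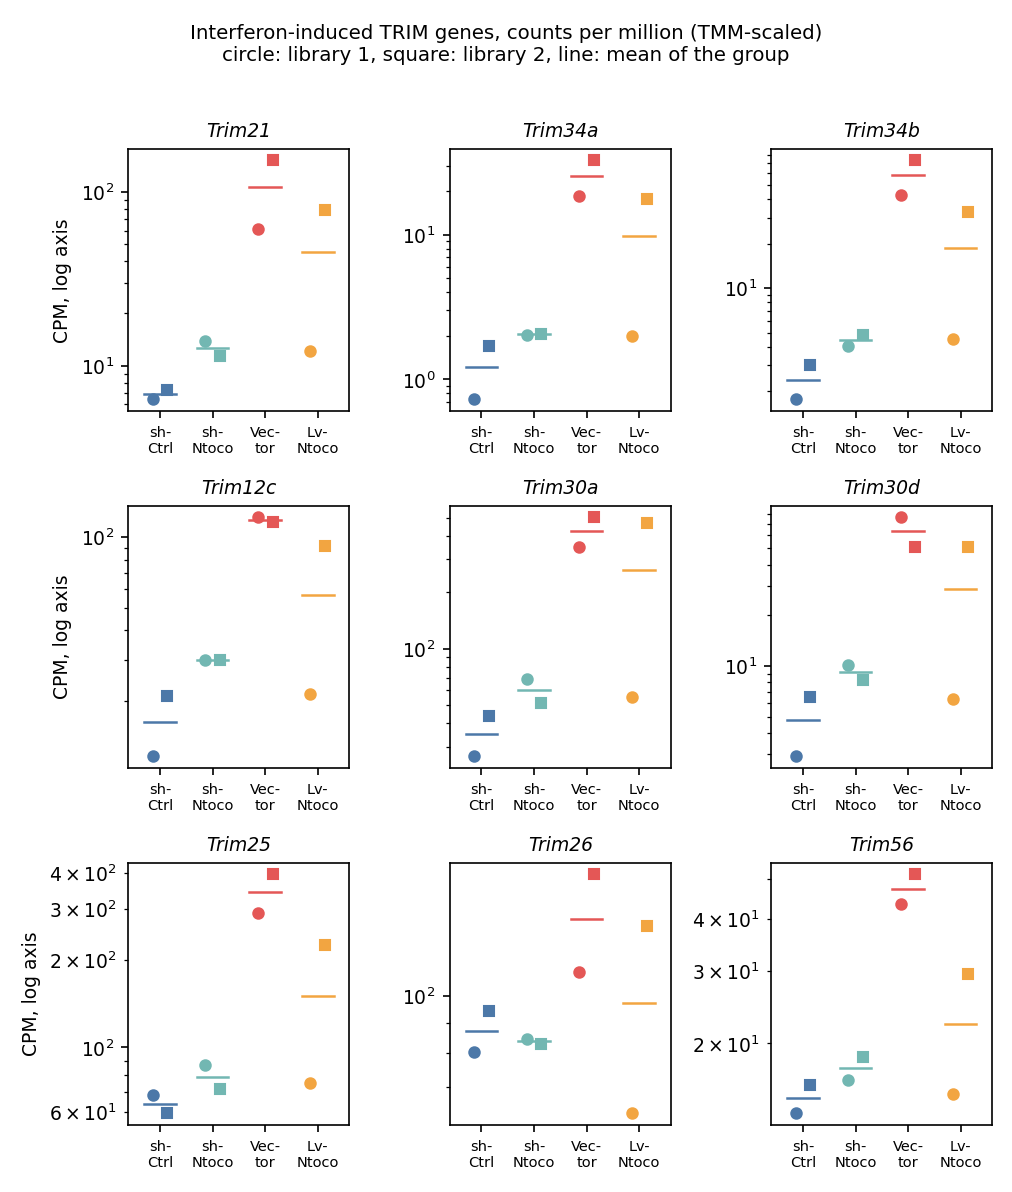
Levels of 9 genes of the interferon list in each library, in CPM on a log axis, with the 4 groups along the horizontal axis, a circle for the first library, a square for the second and a line at the mean of the 2 libraries. Both vector libraries lie above both sh-Ctrl libraries in every panel, and the 2 Lv-Ntoco libraries lie apart, as for Trim30a at 55.4 and 471 CPM.

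Within the cluster on chromosome 7, Trim21, a cytosolic receptor for antibody-coated pathogens, stood at 6.44 and 7.27 CPM in sh-Ctrl, 13.97 and 11.4 in sh-Ntoco, 61.0 and 152 in Vector, and 12.2 and 78.5 in Lv-Ntoco. The vector libraries were high, the second Lv-Ntoco library lay within their range and the first lay among the hairpin libraries. The fitted ratio of Vector to sh-Ctrl was 15.5-fold (log2 ratio 3.96, SE 0.84). This SE and those that follow come from the fit of all 4 groups. They therefore also carry the spread within groups outside the comparison, such as the gap between the Lv-Ntoco libraries. Trim30a, a relative of Trim5 reported to restrain NF-κB signalling, stood at 26.9 and 43.7, 68.8 and 51.2, 348 and 502, and 55.4 and 471 CPM in the same group order. That was 12.04-fold in Vector over sh-Ctrl (log2 ratio 3.59, SE 0.86).

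Trim34a had 0.733 and 1.71 CPM in sh-Ctrl, 2.04 and 2.07 in sh-Ntoco, 18.5 and 32.6 in Vector, and 2.01 and 17.5 in Lv-Ntoco. Its near-copy Trim34b had 1.78 and 3.01, 4.08 and 4.78, 42.7 and 73.1, and 4.53 and 32.9 CPM. Because their reads can be exchanged, their sum was also taken: 2.51 and 4.72 CPM in sh-Ctrl, 6.12 and 6.85 in sh-Ntoco, 61.2 and 106 in Vector, and 6.54 and 50.4 in Lv-Ntoco. In the sum, as in each gene, both vector libraries and the second Lv-Ntoco library lay above the other 5. The ratios of Vector to sh-Ctrl were 20.8-fold for Trim34a (log2 ratio 4.38, SE 0.97) and 24.1-fold for Trim34b (4.59, SE 0.88). An antisense transcript, Gm47248, covers 23.5% of the exon bases of Trim34a on the opposite strand, and the strand setting of the counting is not given in the sources used here.

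Trim12c, one of the mouse counterparts of the retroviral restriction factor TRIM5, had 11.7 and 20.9 CPM in sh-Ctrl, 30.03 and 29.98 in sh-Ntoco, 121 and 115 in Vector, and 21.4 and 91.9 in Lv-Ntoco. Its ratio of Vector to sh-Ctrl was 7.25-fold (log2 ratio 2.86, SE 0.62). Trim5 itself, similar to Trim12c in sequence and in the printed promoter stretch, had no more than 3 reads in any library: 0 and 2, 3 and 2, 3 and 1, and 0 and 1. Trim30d had 2.93 and 6.59, 10.2 and 8.28, 76.1 and 51.0, and 6.34 and 50.8 CPM, a ratio of 13.3-fold (log2 ratio 3.74, SE 0.89).

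Trim30c was the sparsest of the tested genes of the list. It had 0 and 9 reads in sh-Ctrl, 4 and 3 in sh-Ntoco, 53 and 259 in Vector, and 8 and 190 in Lv-Ntoco, and its log2 ratio of 5.07 had an SE of 1.69. Only the vector libraries and the second Lv-Ntoco library reached 10 reads, so the filter partly set its direction in the vector comparison. The other genes of the cluster, Trim6 and Trim68, were not on the list. Trim6, a ligase that makes unanchored ubiquitin chains, had 5.08 and 6.54 CPM in sh-Ctrl and 6.10 and 7.68 in Vector, and Trim68 had 9.27 and 15.4 against 19.0 and 13.7. Both overlapped between these groups, with log2 ratios of 0.25 (SE 0.46) and 0.41 (SE 0.39), although they lie among genes with ratios above 2 on this scale.

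Outside the cluster, Trim25, the ligase known for activating the RNA sensor RIG-I, had 68.4 and 59.4 CPM in sh-Ctrl, 86.6 and 71.8 in sh-Ntoco, 291 and 394 in Vector, and 75.2 and 225 in Lv-Ntoco. The ratio of Vector to sh-Ctrl was 5.36-fold (log2 ratio 2.42, SE 0.47). Trim56, an antiviral ligase, had 13.6 and 15.9, 16.3 and 18.5, 43.5 and 51.3, and 15.0 and 29.5 CPM, a ratio of 3.22-fold (1.69, SE 0.33). Trim26 moved least of the list, with 80.4 and 94.2, 84.7 and 82.8, 110 and 161, and 63.4 and 131 CPM and a ratio of 1.55-fold (0.63, SE 0.34), although its window held 2 matches to the response element. Trim14, known as an adaptor of the antiviral protein Mavs, had 2 and 3, 5 and 3, 0 and 3, and 2 and 1 reads and was not tested. Of its annotated exon bases 31.3% are shared with Nans on the opposite strand.

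In edgeR's quasi-likelihood test with Benjamini-Hochberg adjustment over 12115 genes, no gene had an adjusted p under 0.05 in this comparison (0 genes, 0%), and the lowest adjusted p over all genes was 0.159. Before adjustment, 1520 genes (12.5%) had p under 0.05, among them 9 of the 10 tested genes of the interferon list, all but Trim26, and 4 of the 32 others. Trim30c, among the 9, passed the filter on low counts only through libraries in which it was high. DESeq2 called 281 of 11880 genes (2.37%), of which 9 were TRIM genes: Trim12c, Trim21, Trim25, Trim30a, Trim30d, Trim34a, Trim34b, Trim56 and Trim3. The list was chosen by people who knew that interferon-induced genes were higher in the vector libraries. Calls and p-values of its genes in any of these fits therefore describe the chosen genes and support nothing. When edgeR was fitted to these 2 groups alone it called 128 genes, and the same 8 genes of the list were among them. With all groups fitted, it called 97 genes without the first Lv-Ntoco library and 96 without the second, again with those 8 genes, and 0 without each of the other 6 libraries.

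**Figure D2:**
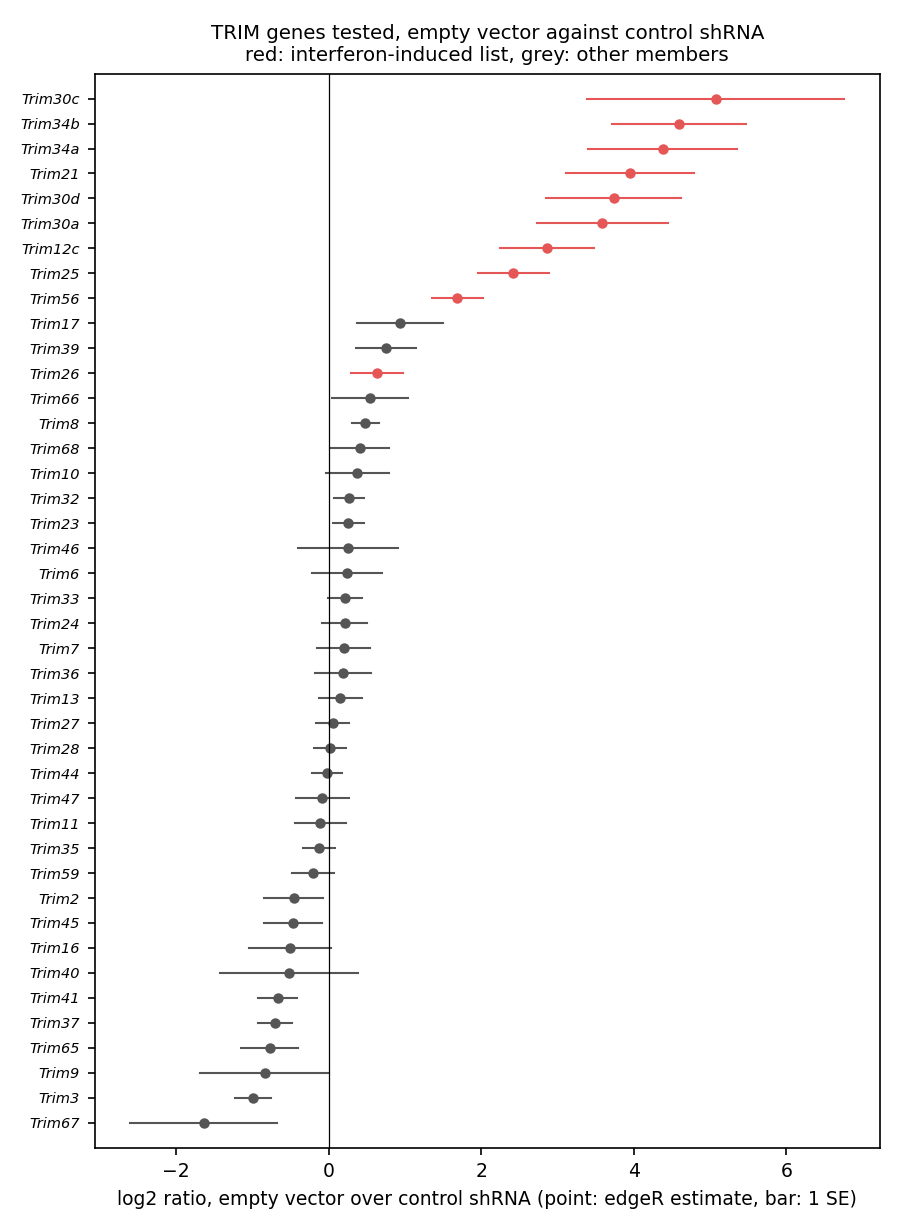
Fitted log2 ratio of Vector to sh-Ctrl for each of the 42 tested TRIM genes, with bars of 1 standard error; red marks the interferon list and grey the other genes. The interferon list runs from 0.63 (Trim26) to 5.07 (Trim30c), and the other genes lie between -1.64 and 0.93. Trim30c passed the filter on low counts only through libraries in which it was high.

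The wider interferon pathway was read from lists of ligand, signalling and target genes. The ligand Ifnb1 (interferon beta), looked up after the other values were seen, had 0 and 2 reads in sh-Ctrl, 0 and 0 in sh-Ntoco, 3 and 29 in Vector, and 0 and 44 in Lv-Ntoco. Ifna4 (an interferon alpha) had 0 and 1, 0 and 0, 4 and 34, and 0 and 14 reads. Reads of both were most frequent in the second library of Vector and of Lv-Ntoco, and at these counts no more than their presence can be stated. Of the receptor and kinase genes, Ifnar1 had a log2 ratio of 0.13 and Jak1 of 0.02. The transcription factors Irf9 and Irf7 had larger ones: Irf9 went from 8.75 and 10.8 CPM in sh-Ctrl to 143 and 198 in Vector (log2 ratio 4.12), and Irf7 from 2.20 and 6.49 to 314 and 154 (5.75). Of 17 tested signalling genes 9 were higher in both vector libraries and 3 lower, with a median of 0.29.

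Of 21 tested interferon target genes, 20 were higher in both vector libraries and 0 lower, with a median log2 ratio of 5.58. Isg15, a ubiquitin-like modifier, had 2.30 and 4.93 CPM in sh-Ctrl and 228 and 188 in Vector. Usp18, which removes it, had 2.88 and 7.22 against 415 and 387. The interferon TRIM genes thus had a lower median ratio than these targets, 3.66 against 5.58. Starting levels in sh-Ctrl overlapped between the 2 sets. Trim25 had 68.4 and 59.4 CPM there and Trim34a 0.733 and 1.71, while the target Helz2 had 58.7 and 87.9.

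Enzymes that hand ubiquitin or Isg15 to ligases were also counted. Ube2l6, the conjugating enzyme of Isg15, had 24.6 and 25.5 CPM in sh-Ctrl and 236 and 109 in Vector (log2 ratio 2.79), and Uba7, its activating enzyme, had 2.46 and 3.69 against 6.95 and 30.4 (2.60). Ube2n, which builds the chains made by Trim25 and Trim21, had 114 and 92.9 against 90.4 and 95.8 (log2 ratio -0.15). Over the 10 such enzymes tested, 5 were higher in both libraries and 1 lower, beside 24.6% and 26.5% of all genes tested, with a median of 0.20. Pml, a tripartite-motif gene outside the naming pattern and also known to be induced by interferon, had 85.6 and 68.5 CPM in sh-Ctrl and 153 and 203 in Vector (log2 ratio 1.21, SE 0.63).

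The second comparison asks how supplying Ntoco changed the family, with Lv-Ntoco against Vector. It shares the vector libraries with the first comparison, so low values here and high values there are not separate observations. All 10 tested genes of the interferon list had a log2 ratio below 0, with a median of -1.12 beside -0.01 over all genes, and 6 were lower in both libraries: Trim12c, Trim25, Trim30d, Trim34a, Trim34b and Trim56. Among the 32 others 10 were lower in both and 4 higher, with a median of -0.13. Over all genes tested, 23.1% were lower in both libraries and 24.1% higher.

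**Figure D3:**
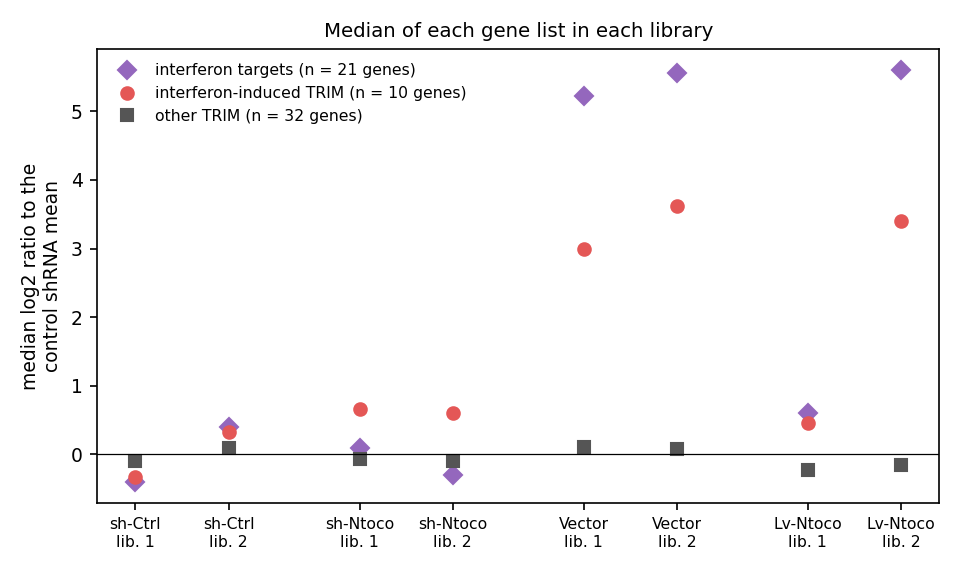
Median log2 level over the sh-Ctrl mean in each library, for 21 interferon targets, 10 interferon-induced TRIM genes and 32 other TRIM genes. The interferon TRIM genes stand at 2.99 and 3.62 in Vector but at 0.45 and 3.40 in Lv-Ntoco, and the other TRIM genes stay between -0.22 and 0.11.

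The 2 Lv-Ntoco libraries stood apart from each other in these genes. For the 9 genes of the list with enough reads, the first library had between 0.0783 and 0.469 of the Vector mean, with a median of 0.130. The second library, over all 10, had between 0.568 and 1.30 of it, with a median of 0.757. Against the sh-Ctrl mean the first library had a median ratio of 1.33 and the second of 10.7. The interferon targets divided the libraries in the same way, with a median log2 level over sh-Ctrl of 0.61 in the first and 5.60 in the second.

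The gap between these libraries was seen in the interferon list and not in the medians of the other members. The median absolute log2 difference between the 2 Lv-Ntoco libraries was 2.68 for the interferon TRIM genes and 0.29 for the other TRIM genes. In the other groups it was 0.66, 0.19 and 0.56 for the interferon genes of sh-Ctrl, sh-Ntoco and Vector, and 0.38, 0.35 and 0.32 for the others. The list's median log2 ratio of Lv-Ntoco to Vector was -3.03 without the second Lv-Ntoco library and -0.40 without the first, so its size rested on the first library.

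No gene of the list passed the test. Trim56 had a log2 ratio of -1.09 (SE 0.33), Trim25 of -1.19 (SE 0.45) and Trim34b of -1.63 (SE 0.76), and adjusted p over the list ran from 0.598 to 0.880 in edgeR's quasi-likelihood test. No gene passed the adjusted threshold over the whole table (0 genes, 0%, lowest adjusted p 0.598). With no adjustment, 923 genes (7.62%) had p under 0.05, with 2 of the interferon list (Trim25 and Trim56, both lower) and 3 of the others. DESeq2 called 1 gene, and 0 TRIM genes. Without the second Lv-Ntoco library edgeR called 25 genes, 0 of them TRIM genes.

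The third comparison asks how the hairpin against Ntoco changed the family, with sh-Ntoco against sh-Ctrl. It shares the sh-Ctrl libraries with the first comparison. Of the 10 tested genes of the interferon list 8 were higher in both sh-Ntoco libraries and 0 lower, with a median log2 ratio of 0.76 beside 0.01 over all genes. Of all genes tested 15.1% were higher in both libraries and 14.1% lower. Among the 32 other TRIM genes 3 were higher in both and 3 lower, with a median of -0.11.

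The size of these differences was modest next to their errors. Those errors come from the fit of all 4 groups, so they are not the spread of the hairpin libraries alone. They also carry the gap between the 2 Lv-Ntoco libraries, which had a median of 2.68 on the log2 scale for the list. In sh-Ctrl and sh-Ntoco that gap was 0.66 and 0.19. Trim30d had a log2 ratio of 0.95 (SE 0.83), Trim21 of 0.89 (SE 0.77), Trim34b of 0.89 (SE 0.81), Trim12c of 0.88 (SE 0.59) and Trim30a of 0.77 (SE 0.79). Trim25 had 0.31 (SE 0.44) and Trim56 had 0.24 (SE 0.33). Trim26, at 80.4 and 94.2 CPM against 84.7 and 82.8, and Trim30c overlapped between the groups. The interferon targets had no common direction. Of 21 tested, 2 were higher in both sh-Ntoco libraries and 4 lower, beside 15.1% and 14.1% of all genes tested, with a median of -0.29. Isg15 had 2.30 and 4.93 CPM in sh-Ctrl and 3.66 and 2.17 in sh-Ntoco (log2 ratio -0.31, SE 1.36). Whether the targets and the TRIM list differ in direction was not tested.

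No gene passed in edgeR's quasi-likelihood test of the knockdown (0 genes, 0%, lowest adjusted p 0.415), and adjusted p over the interferon list ran from 0.992 to 0.998. With no adjustment, 378 genes (3.12%) had p under 0.05, 0 TRIM genes among them, and DESeq2 called 15 genes, 0 of them TRIM genes. The median of the interferon TRIM genes was 0.44 without the first sh-Ctrl library and 1.23 without the second. The 2 control libraries themselves differed by 0.66 at the median on the log2 scale.

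**Figure D4:**
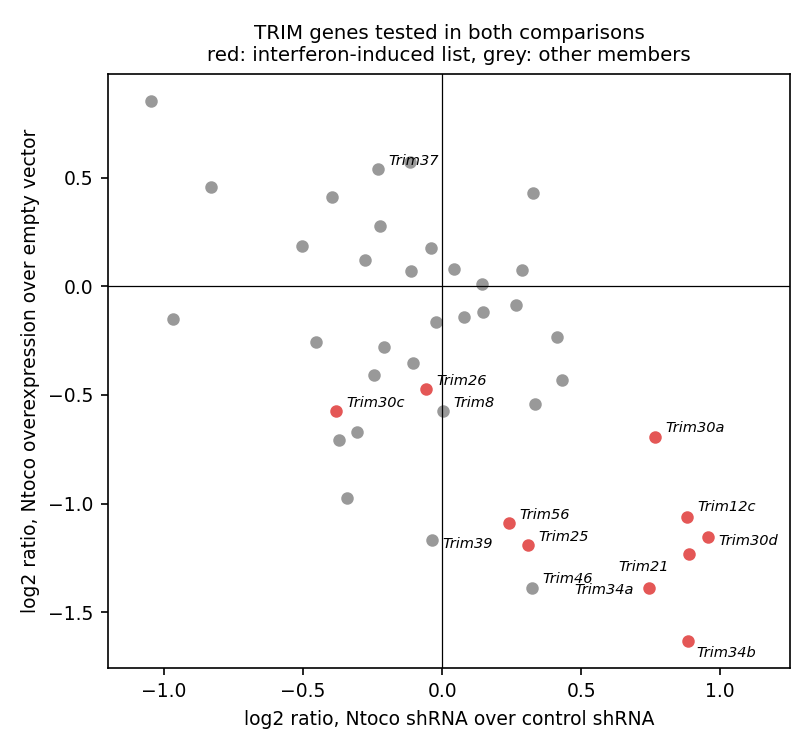
Fitted log2 ratio of sh-Ntoco to sh-Ctrl (horizontal) against that of Lv-Ntoco to Vector (vertical) for the 42 tested TRIM genes, red for the interferon list and grey for the others. The list lies below 0 on the vertical axis throughout, with medians of 0.76 and -1.12. The other genes run from -1.05 to 0.43 on the horizontal axis and from -1.39 to 0.85 on the vertical axis, where they overlap the list. Their medians are -0.11 and -0.13.

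The difference between the effects of supplying and of lowering Ntoco was fitted directly. All 10 tested interferon genes had a log2 difference below 0, with a median of -1.72, and the 32 others had a median of -0.14. Of all 12115 genes tested 6251 were below 0, with a median of -0.02. The difference is built from the libraries of the comparisons above, so it is not a separate observation. It includes the 2 Lv-Ntoco libraries, which stood apart from each other in these genes. Trim56 had -1.33, Trim25 -1.50 and Trim12c -1.94. None passed, since edgeR's quasi-likelihood test called 0 genes over the table (0%), with a lowest adjusted p of 0.650. With no adjustment, 838 genes (6.92%) had p under 0.05, with 3 of the list and 1 other TRIM gene, Trim37. DESeq2 called 14 genes, 0 of them TRIM genes.

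How far each gene varied over the 8 libraries is given as a description, since the vector libraries that set the range of the interferon list were known when the list was chosen. Among genes with at least 10 reads in each, the ratio of the highest to the lowest CPM had a median of 1.997 for 29 other genes, from 1.27 (Trim44) to 4.79 (Trim16). For 9 genes of the interferon list it had a median of 18.7, from 2.53 to 44.5. Over the 11078 tested genes with as many reads the median was 1.87, close to that of the other TRIM genes. The ratio stayed under 2 in 15 of the 29 other genes, in 0 of the 9 and in 57.2% of all genes, and reached 5 in 0 of the 29, in 7 of the 9 and in 5.61% of all genes. Trim44, which lacks the RING finger, stood at 61.1 and 74.9 CPM in sh-Ctrl, 65.7 and 68.1 in sh-Ntoco, 74.8 and 59.1 in Vector, and 60.5 and 58.9 in Lv-Ntoco.

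**Figure D5:**
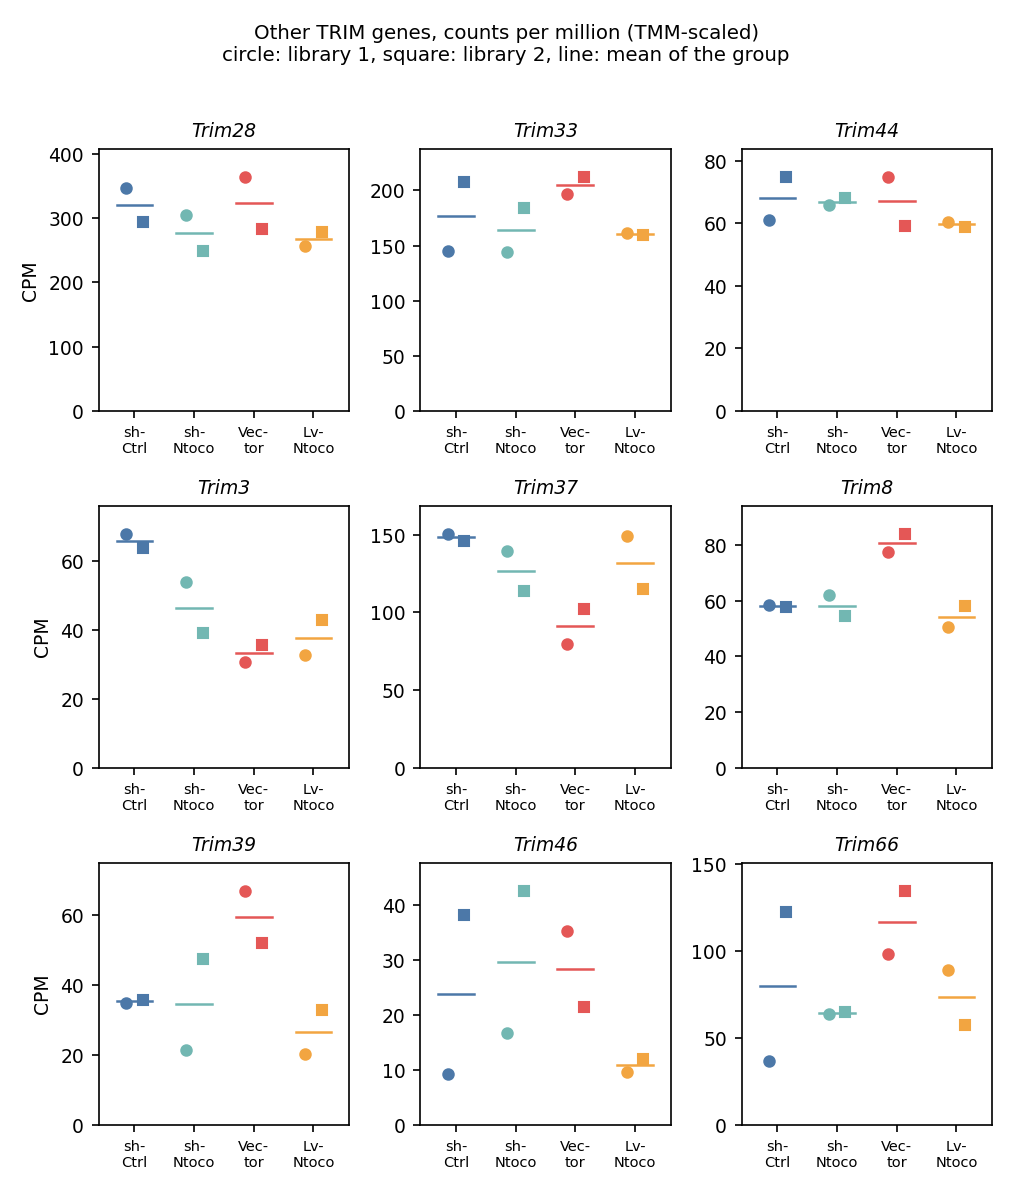
Levels of 9 other TRIM genes in each library, in CPM from 0, with the 4 groups along the horizontal axis, a circle for the first library, a square for the second and a line at the mean. Trim44 stays between 58.9 and 74.9 CPM, while Trim3 is at 68.1 and 64.1 in sh-Ctrl and at 30.7 and 35.8 in Vector.

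The nuclear corepressors Trim24, Trim28, Trim33 and Trim66 carry a PHD finger and a bromodomain. Trim28 stood at 347 and 294 CPM in sh-Ctrl, 305 and 249 in sh-Ntoco, 365 and 283 in Vector, and 256 and 278 in Lv-Ntoco. Trim33, which acts on Smad signalling, had 145 and 207, 144 and 184, 196 and 212, and 161 and 159 CPM. Trim24, a cofactor of nuclear receptors, had 27.9 and 40.8, 55.8 and 35.8, 41.3 and 38.0, and 38.6 and 28.9 CPM. Trim66 varied most, with 36.9 and 123, 63.8 and 65.1, 98.2 and 135, and 89.2 and 57.2 CPM. None of the 4 stood apart in both libraries in the control comparison or the knockdown, while 3 (Trim28, Trim33 and Trim66) were lower in both Lv-Ntoco libraries than in Vector, beside 23.1% of all genes tested, with a median log2 ratio of -0.32 over the 4 and none at an unadjusted p under 0.05.

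The NHL-repeat genes regulate protein turnover and translation in neurons and muscle. Trim3, enriched in brain, had 68.1 and 64.1 CPM in sh-Ctrl, 53.9 and 39.2 in sh-Ntoco, 30.7 and 35.8 in Vector, and 32.7 and 43.0 in Lv-Ntoco. It was lower than sh-Ctrl in every library of the 3 other groups, with log2 ratios of -0.99 (SE 0.24) for Vector and -0.51 for sh-Ntoco. Its adjusted p in the first was 0.337 in edgeR's quasi-likelihood test and 0.0324 in DESeq2. Trim2, known for binding neurofilament light chain and the only other gene with a response element match, had 11.5 and 8.98, 13.8 and 7.30, 5.94 and 8.91, and 7.98 and 7.72 CPM. Trim32, mutated in a limb-girdle muscular dystrophy, had 44.8 and 50.3, 53.8 and 60.7, 62.5 and 52.3, and 58.4 and 49.8 CPM, and Trim71 had no more than 4 reads in any library.

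Of 5 tested genes with membrane, ARF, MATH or filamin domains, 3 (Trim13, Trim37 and Trim59) were higher in both Lv-Ntoco libraries than in Vector, beside 24.1% of all genes tested, and Trim23 and Trim45 overlapped between the groups. The median log2 ratio of the 5 was 0.43. Trim37, a MATH-domain ligase of centrosomes and peroxisomes, had 151 and 146 CPM in sh-Ctrl, 140 and 113 in sh-Ntoco, 79.9 and 102 in Vector, and 149 and 115 in Lv-Ntoco. Both vector libraries were below all other libraries, so the log2 ratios were -0.71 (SE 0.22) for Vector over sh-Ctrl and 0.54 (SE 0.22) for Lv-Ntoco over Vector. Trim59, anchored in the endoplasmic reticulum, had 61.0 and 38.0, 53.6 and 37.8, 40.8 and 45.3, and 62.4 and 65.6 CPM. Trim13, also anchored there, had 10.1 and 9.97, 14.8 and 10.4, 11.3 and 10.9, and 16.8 and 13.2 CPM. None of them passed the adjusted threshold in edgeR.

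Of 7 microtubule-binding genes 4 were tested. Trim46, which organises microtubules at the axon initial segment, had 9.27 and 38.1 CPM in sh-Ctrl, 16.7 and 42.6 in sh-Ntoco, 35.1 and 21.3 in Vector, and 9.63 and 11.97 in Lv-Ntoco. The libraries of each hairpin group lay far apart, and both Lv-Ntoco libraries lay below both vector libraries (log2 ratio -1.39, SE 0.67, adjusted p 0.598 in edgeR's quasi-likelihood test). Its exons share 239 bases with Krtcap2 on the opposite strand. Trim67 had 15 and 26 reads in sh-Ctrl, 15 and 5 in sh-Ntoco, 1 and 12 in Vector, and 9 and 14 in Lv-Ntoco.

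The remaining members with an unadjusted p under 0.05 in edgeR's quasi-likelihood test follow, and none passed the adjusted threshold there. In the vector comparison 1 of the 32 other TRIM genes had such a p and was higher, and 3 were lower. Over all genes tested the share was 12.5% in either direction. In the overexpression 1 was higher and 2 were lower, beside 7.62% of all genes tested. Trim8, a regulator of cytokine signalling, had 58.3 and 57.6 CPM in sh-Ctrl, 61.9 and 54.4 in sh-Ntoco, 77.6 and 84.1 in Vector, and 50.6 and 58.0 in Lv-Ntoco, with log2 ratios of 0.48 (SE 0.18) for Vector over sh-Ctrl and -0.57 (SE 0.18) for Lv-Ntoco over Vector. Trim39, which slows the anaphase-promoting complex, had 34.8 and 35.8, 21.5 and 47.2, 66.9 and 51.8, and 20.1 and 32.8 CPM, a log2 ratio of -1.17 (SE 0.39) for Lv-Ntoco over Vector. Both were highest in the vector libraries, and both Lv-Ntoco libraries were below them. Trim41 had 39.3 and 52.5, 45.2 and 39.7, 34.2 and 23.5, and 29.5 and 31.0 CPM, a log2 ratio of -0.67 (SE 0.25) for Vector over sh-Ctrl, and 31 of its exon bases lie opposite Rack1.

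The most highly expressed of the other genes showed no common pattern. Trim35 had 212 and 208 CPM in sh-Ctrl, 266 and 197 in sh-Ntoco, 210 and 174 in Vector, and 201 and 186 in Lv-Ntoco. Trim47 had 93.2 and 46.7, 63.1 and 52.1, 53.2 and 78.7, and 63.6 and 79.8 CPM, with the widest gap inside sh-Ctrl. Trim27, a nuclear ligase first found fused to the Ret kinase, had 68.7 and 78.8, 69.7 and 86.1, 84.2 and 68.7, and 61.8 and 76.8 CPM. In all 3 the libraries of sh-Ctrl and Vector overlapped.

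Summed over the family, the interferon list made up 11.6% and 12.9% of TRIM reads (as CPM) in sh-Ctrl, 16.3% and 15.7% in sh-Ntoco, 39.7% and 48.7% in Vector, and 14.6% and 43.3% in Lv-Ntoco. By FPKM, which corrects for gene length, the shares were 11.8% and 14.5%, 17.0% and 16.9%, 40.4% and 50.6%, and 15.5% and 44.0%. The other genes of the family summed to between 1491 and 1716 CPM in every library. The share was high in the vector libraries and the second Lv-Ntoco library and low in the other 5.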

How the data were processed

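Whole-number counts of reads per gene, which the authors deposited without normalization, were used for all tests, and FPKM values, which the authors also deposited, for levels between genes. In 12615 of 12615 genes counted in every library the FPKM equalled the count over 1 gene length and the library's listed total, within a tolerance of 1 base of that length. Trimmomatic, HISAT2, Cufflinks, HTSeq, DESeq and the build mm10 were used, per the submitters' processing notes. Their versions, the annotation and the strand setting were not given in the sources used here. The kit was stranded and selected polyadenylated RNA, per the labels' protocols. Each of the 8 columns was matched to a group by the role in the name (control or targeting hairpin, vector, overexpression), since the names write AK where the labels write Ntoco, and 0 columns were left out.

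The interferon list, the role lists and the genes tested were chosen with earlier results of these data known. Every gene of the naming pattern could be named. Values per library were given for the interferon list, the 10 other members highest in mean FPKM, members at an unadjusted p under 0.05, the corepressor and NHL genes, and members at the edge of the filter. CPM were computed by edgeR from the counts with TMM-scaled library sizes. Counts of all 4 groups were fitted in 1 model with edgeR 4.0.16 (filterByExpr with a minimum count of 10, TMM, quasi-likelihood F-test, Benjamini-Hochberg over 12115 genes, threshold 0.05) in R 4.3.3. With 2 libraries a group there were 4 residual degrees of freedom, and the biological coefficient of variation was 28.0%. Each gene had 1 estimate of spread for all 4 groups, so the SE and p of a comparison also reflect groups outside it. DESeq2 1.42.0, other scalings and filters, 2-group fits, a block on library number and leaving out each library were alternatives. "Higher in both libraries" means that both exceed both libraries of the other group in CPM. Similarity was found with blastn 2.17.0 on GENCODE M21 transcripts. The edgeR script was tested on simulated data. The labels state no pairing of library numbers, and the main fit included none.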

Additional observations from a re-analysis of the deposited data

How the results depend on the processing

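With 2 libraries a group, 1 library could move most values. Genes called in the vector comparison numbered 0 in the fit of all groups, 3 with no filter, 128 with only the groups compared and 281 with DESeq2, and 0 to 97 when each library was left out. The knockdown gave 15 genes with DESeq2 and 0 to 1 with a library left out, the overexpression 1 with DESeq2, 1 with only the groups compared and 0 to 25 with a library left out, and the difference of the effects 14 with DESeq2 and 0 to 1. The cause was not tested. With a library left out, the median log2 ratio of the interferon TRIM genes ran from 0.44 to 1.23 in the knockdown, from -3.03 to -0.40 in the overexpression and from 3.23 to 4.01 in the vector comparison. That of the other TRIM genes ran from -0.11 to -0.00059, from -0.19 to -0.064 and from -0.032 to 0.15, and was -0.088 in the overexpression with upper-quartile scaling.

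Single genes changed sign as follows. In the knockdown Trim26 ran from -0.17 to 0.054 and Trim30c from -1.36 to 4.82 with a library left out, the latter without the second sh-Ctrl library. In the overexpression Trim30a ran from -2.94 to 0.15 and Trim30c from -4.27 to 0.94. The replicate block on library number gave Trim30c 0.24 in the knockdown and changed no count of calls, which stayed at 0 in all 4 comparisons. Correlations of same-numbered deviations ran from -0.37 (sh-Ntoco and Vector) to 0.36 (sh-Ctrl and sh-Ntoco). The labels do not state a pairing, and these values cannot show whether same-numbered libraries were handled together. Scaling moved the median of all genes by no more than 0.05 on the log2 scale.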
